A study of Mus musculus with 14 samples.

Results

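Promoter regions that were accessible in every ATAC-seq library of a GATA6 induction time course are described here. Peaks of the 14 autosomal peak lists were merged wherever they overlapped by 1 bp or more, and a region counted as called in a library if any peak of that library lay in it. The merge gave 121891 regions. All 14 libraries called 18395 of them, and 9592 of these had their midpoint within 1 kb of a protein-coding transcription start site (TSS) in GENCODE M21. These 9592 always-open promoters were 48.6% of the 19726 promoter regions, whereas 8.62% of regions farther from a TSS were called in all 14 libraries. Calls in the peak lists chose them, so their constant presence is a selection and not a finding.

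KH2 embryonic stem (ES) cells of the mouse, labelled C57BL/6, were used throughout, with the single-copy TRE:GATA6-DsRed2 transgene, whose Tet-responsive element drives GATA6-FLAG and DsRed2 when doxycycline (Dox) is present. The 0 h cells also carried it and were grown in 2i medium with LIF and no Dox. Cells of 2, 4 and 8 h were moved to serum medium with LIF and Dox at 1 µg/mL, and those of 16, 24 and 48 h had Dox for 12 h and then serum medium without it. There were 2 libraries of 50000 cells at each of the 7 time points. Cells in serum that never received Dox were not analysed here, so the change of medium and GATA6 induction cannot be told apart. All cells came from 1 line, and nothing in the labels says that the libraries of a time point came from separate cultures. The paper states that replicate experiments were done independently. It does not say for these libraries whether cultures were separate, so part of their spread may be technical.

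A promoter is the stretch around a TSS where general transcription factors and RNA polymerase II assemble, and an active promoter is kept largely free of nucleosomes, which lets the transposase used in ATAC-seq cut there. Promoters of genes that every cell needs are usually rich in CpG dinucleotides and are bound by broadly expressed factors such as SP1, NFY and ETS proteins, while many tissue-restricted genes have CpG-poor promoters that open only in their own cell type. In the blastocyst, GATA6 directs inner cell mass cells to primitive endoderm (PrE), and NANOG, SOX2 and OCT4 maintain the epiblast (Epi), which ES cells resemble.

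Markers of the lineages were compared with the labels, and some did not follow them. Promoter regions of Foxa2, a forkhead factor of endoderm, were called in both libraries of every time point from 8 h and in 0 libraries before. Those of Hnf4a, a nuclear receptor of endoderm, were called only from 16 h, and those of Amn and Cubn, the endocytic receptor pair of visceral endoderm, only in both libraries of 48 h. A Nanog promoter region was called in both 0 h libraries and in 0 libraries of 48 h, and a Dppa4 region in 0 libraries from 16 h. The Nanog region was, however, called in both 16 h libraries, Klf4 in 1 library at 0 h and 1 at 48 h, and Esrrb in both libraries of each. Of the pluripotency list, Nr5a2 was called only from 8 h on, and of the PrE list, Col4a1 and Col4a2 were called in both 0 h libraries and in 1 of 48 h. Each library held between 54301 and 63667 autosomal peaks over 22.5 to 30.5 Mb. The lists contain no reads, so depth is unknown from them.

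Accessibility was read as the rank of each region in its own library. Every deposited peak has 1 score of unstated scale, and a percentile of 90 means that the best peak of the region scored above 90% of that library's autosomal peaks. A difference between time points is therefore a difference in rank. It can come from the region itself or from other peaks of the list. Because a region had to be called 14 times, those that closed completely are not among the 9592.

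The sequences below show what these promoters look like on the strand of their gene, in GRCm38. Each gives the bases directly upstream of the TSS, outside every annotated exon, and ends 1 base before the TSS. Capitals mark letters of 12 motifs that were searched on both strands, above all the GC box GGGCGG of SP and KLF factors, the CCAAT box of NFY, CCGGAAG of ETS factors, the cAMP response element TGACGTCA and the GATA motif AGATAA. Rab8a and Sel1l are among the 5 promoters with the highest mean percentile. Pgm2l1, Smdt1 and Saal1 had the smallest spread over the 14 libraries among promoters with a mean under 90. Lamb1, Dab2 and Rcn3 rose in rank by 48 h, Pglyrp1, Spic and Igtp fell, and Dppa5a, Klf5 and Zfp42 belong to pluripotency genes.
Rab8a, chr8:72161090-72161199, plus strand: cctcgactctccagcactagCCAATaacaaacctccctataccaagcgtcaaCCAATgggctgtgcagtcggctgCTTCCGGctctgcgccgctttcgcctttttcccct
Sel1l, chr12:91849158-91849267, minus strand: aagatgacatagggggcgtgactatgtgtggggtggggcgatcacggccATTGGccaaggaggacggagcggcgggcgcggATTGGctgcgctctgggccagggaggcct
Pgm2l1, chr7:100227284-100227393, plus strand: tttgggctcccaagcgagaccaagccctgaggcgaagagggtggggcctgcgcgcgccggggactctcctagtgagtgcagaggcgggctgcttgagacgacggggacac
Smdt1, chr15:82345844-82345953, plus strand: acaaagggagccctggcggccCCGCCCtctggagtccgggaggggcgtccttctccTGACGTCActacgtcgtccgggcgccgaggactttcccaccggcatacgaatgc
Saal1, chr7:46710681-46710790, minus strand: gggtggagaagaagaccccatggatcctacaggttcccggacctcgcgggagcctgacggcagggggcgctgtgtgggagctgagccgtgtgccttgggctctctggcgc
Lamb1, chr12:31265124-31265233, plus strand: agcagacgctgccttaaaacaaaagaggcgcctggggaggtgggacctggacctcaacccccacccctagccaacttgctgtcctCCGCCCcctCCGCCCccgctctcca
Dab2, chr15:6386488-6386597, plus strand: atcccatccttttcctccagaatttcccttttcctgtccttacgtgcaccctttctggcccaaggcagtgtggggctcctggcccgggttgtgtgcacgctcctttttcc
Rcn3, chr7:45092222-45092331, minus strand: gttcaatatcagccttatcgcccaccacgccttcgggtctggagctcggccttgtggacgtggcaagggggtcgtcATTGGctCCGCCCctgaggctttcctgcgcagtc
Pglyrp1, chr7:18884570-18884679, plus strand: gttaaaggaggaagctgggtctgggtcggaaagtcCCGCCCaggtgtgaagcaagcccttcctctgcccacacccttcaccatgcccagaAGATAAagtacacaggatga
Spic, chr10:88685016-88685125, minus strand: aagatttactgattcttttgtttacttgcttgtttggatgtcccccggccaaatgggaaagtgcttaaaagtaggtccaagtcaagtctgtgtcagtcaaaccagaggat
Igtp, chr11:58199446-58199555, plus strand: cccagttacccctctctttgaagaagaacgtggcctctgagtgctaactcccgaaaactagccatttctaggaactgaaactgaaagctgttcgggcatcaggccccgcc
Dppa5a, chr9:78368178-78368287, minus strand: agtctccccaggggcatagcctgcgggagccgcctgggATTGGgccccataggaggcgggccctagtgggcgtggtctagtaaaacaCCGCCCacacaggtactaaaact
Klf5, chr14:99298581-99298690, plus strand: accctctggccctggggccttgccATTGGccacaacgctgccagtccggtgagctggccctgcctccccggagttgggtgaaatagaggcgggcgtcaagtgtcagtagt
Zfp42, chr8:43306981-43307090, minus strand: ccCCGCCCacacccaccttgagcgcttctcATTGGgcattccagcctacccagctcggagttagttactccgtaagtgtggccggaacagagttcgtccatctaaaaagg

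Rab8a and Sel1l each hold a pair of CCAAT boxes, read on either strand. Pglyrp1 holds a GC box and the GATA letters. In 300-base windows from 250 bases before the TSS to 50 from it on, 62.3% was the median GC content of the 9935 genes with an always-open promoter. It was 57.7% for the 4598 genes whose promoter region was called in 1 to 13 libraries and 45.7% for the 6189 genes with none. For genes with an always-open promoter the window was at the TSS nearest their highest-ranked such region. For all other genes it was at the annotated 5' end of the gene, so windows were placed by different rules. The ratio of observed to expected CpG was over 0.6 in 78.5%, 45.5% and 4.96% of these 3 classes. A GC box stood in 69.2%, 49.0% and 9.94% of the windows, with 47.0% over all 20722 genes. ETS letters stood in 20.6%, 7.16% and 2.08%, with 12.1% over all genes. The TATA box TATAAA ran the other way, at 5.42%, 9.70% and 24.1%, with 12.0% over all genes. In windows placed this way, genes with an always-open promoter were CpG-rich and GC-box-rich relative to the annotation as a whole. A match is a description of letters and not of a bound factor, and the base composition of the windows differs between the classes.

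The CCAAT box followed rank within the always-open set. Among the 2398 promoters with the lowest mean percentile 28.6% of windows held it, then 34.5% and 41.7% of the next groups of 2398, and 60.8% of the highest group. Genes with an always-open promoter held it in 41.7% of windows, other genes with a promoter region in 29.8%, genes with none in 40.0% and all genes in 38.5%. The windows of these gene classes were placed by the different rules given above. The 3968 promoters with a CCAAT box had a median mean percentile of 86.1, and the 5624 without one had 76.5. The GC box moved less across the 4 groups, from 65.7% to 72.9%. ETS letters rose from 13.6% to 24.0% in the group below the highest and stood at 22.4% in the highest. The CpG ratio was nearly unrelated to mean percentile across the 9592 promoters (Pearson's r = 0.06, Spearman's rho = 0.04, regions of the same libraries and not independent replicates).

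**Figure D1:**
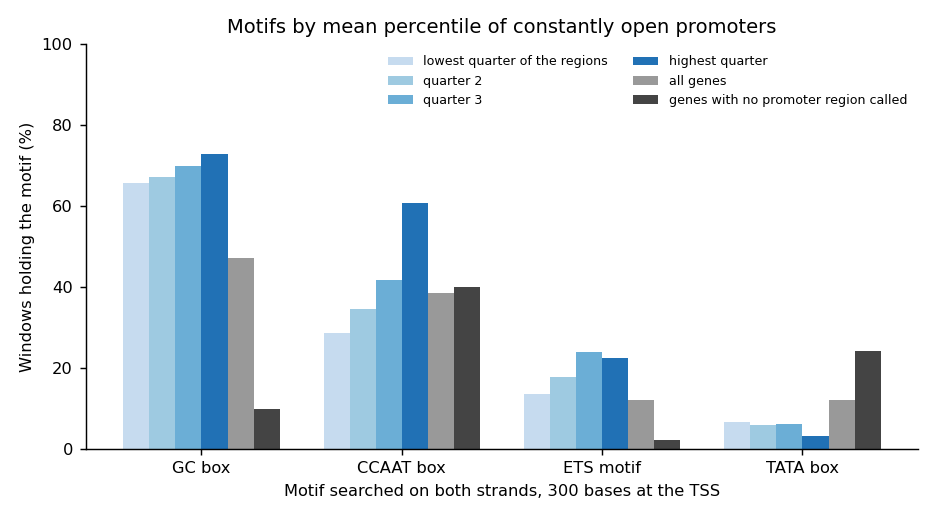
Share of 300-base TSS windows (percent, from 0) that hold each of 4 motifs, for the always-open promoters in 4 equal groups by mean percentile, for all genes and for genes with no promoter region called. The CCAAT box rises from 28.6% to 60.8% across the groups, and the TATA box is most frequent, at 24.1%, in genes with no promoter region. Promoter windows lie at the TSS nearest the region, and those of genes with no region at the annotated 5' end.

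The regions lay close to their TSS. The median distance between midpoint and TSS was 110 bp, 80.3% of midpoints were within 250 bp, and 8908 regions (92.9%) contained the TSS itself. Of the midpoints, 38.1% fell in an untranslated exon, 11.4% in a coding exon, 24.1% in an intron and 26.4% outside protein-coding genes. At the edge of the rule, the 94 members with midpoints beyond 900 bp had a median percentile of 69.1. The 61 always-called regions in the next 100 bp outward had 67.7. The 599 members beyond 500 bp stood lower (median of mean percentiles 68.6) than the 7699 within 250 bp (82.1).

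Some promoter regions lay near the starts of more than 1 gene. Within 1 kb, 8419 regions had 1 gene, 1139 had 2 and 34 had 3 or more. Of the pairs, 1070 (93.9%) were on opposite strands, as in divergent promoters, but the order of the 2 starts was not checked. Regions with such opposite-strand pairs had a median mean percentile of 86.8, against 79.7 for regions with 1 gene. Their windows held ETS letters in 30.4% of cases against 18.01%, and a CpG ratio over 0.6 in 90.4% against 74.8%. One opposite-strand pair joins Mrpl18, a mitochondrial ribosomal protein gene, with Tcp1, a chaperonin subunit gene. At their region, chr17:12915866-12916545, the percentile never left 99.2 to 99.9.

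Gene lists of known function were set beside the 47.9% of all 20722 autosomal protein-coding genes that had an always-open promoter. DNA replication licensing genes reached 23 of 23, among them Mcm4, a helicase subunit, and Gins2 of the same replicative complex. Aminoacyl-tRNA synthetases reached 35 of 36, and Gars was the 1 without. Proteasome subunits reached 31 of 33, lacking Psmb7 and Psmd9, splicing factors 36 of 40 and RNA polymerase subunits 24 of 27, lacking Polr1a, Polr2f and Polr2m. Respiratory complex I reached 30 of 34 (without Ndufa9, Ndufb4, Ndufc2 and Ndufs1), chaperones 69 of 80, replication-dependent histones 57 of 67, mitochondrial ribosomal proteins 66 of 78 and translation initiation factors 40 of 48. Cytosolic ribosomal proteins stood lower, at 56 of 75, although 75 of 75 had a promoter region in at least 1 library.

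Lists of tissue-restricted genes lay below the background. Keratins had 0 of 49, cytochrome P450 enzymes had 11 of 93 and Hox genes 7 of 39. Olfactory receptors had 1 of 1126, the gene Olfr15, and vomeronasal receptors 1 of 325. That one, Vmn1r4, shares its region with Nt5c3, a nucleotidase gene. Of proteasome subunits with tissue-restricted use, 2 of 5 had a member, Psma8 of testis and Psmb9 of the immunoproteasome. Psmb9 shares its region with Tap1, an antigen peptide transporter. Lists of regulators spread widely, with 29 of 86 Sox, Fox, Gata, Pax and T-box factors, 16 of 49 Wnt, Fgf and Bmp ligands, 282 of 383 Zfp zinc fingers and 27 of 42 chromatin regulators. The study's own PrE and Epi lists, which were not picked from these ATAC-seq libraries, had 424 of 570 and 137 of 218.

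**Figure D2:**
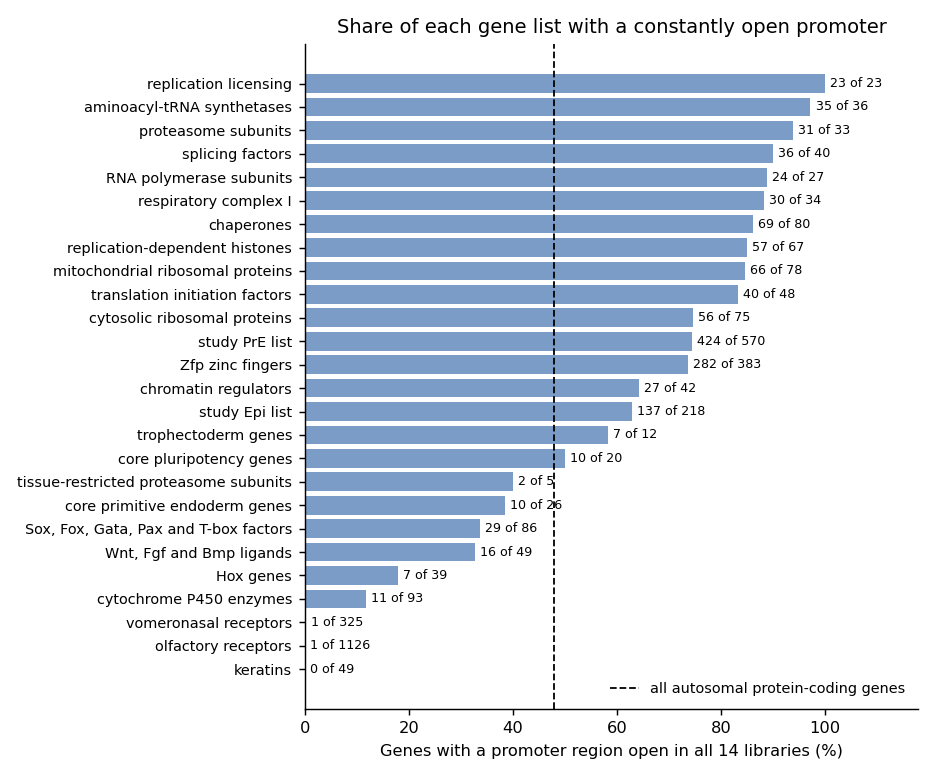
Share of the autosomal protein-coding genes of each list (percent, from 0) that had a promoter region open in all 14 libraries, with counts beside the bars. The dashed line marks 47.9%, the share of all genes, and replication licensing (23 of 23) and keratins (0 of 49) are the extremes.

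Rank was high at most of these promoters, which cannot be told apart from their choice by calls in all 14 libraries. Promoter regions called in 13 libraries had a median mean percentile of 46.7 where called. The mean percentile over the libraries had a median of 80.5 over the 9592, with 66.3 and 91.2 as quartiles, and the median range over the 14 libraries was 23.3 points. The 8803 always-called distal regions had a median range of 39.4 points. A range under 10 points was found for 2194 promoters (22.9%) and for 4.53% of the distal regions. The percentile ends at 100, and the promoters with a range under 10 had a median mean percentile of 96.2, so range and rank move together and the part of rank in the smaller ranges was not tested. Libraries of 1 time point differed by a median SD of 4.49 points at the promoters. Replicate libraries ranked them alike (Spearman's rho 0.914 to 0.945 across the 9592, which share libraries), and 0 h against 48 h libraries less so (0.720 to 0.746).

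Ranges were smallest, among promoters with a mean under 90, at 6 genes. Pgm2l1, a sugar bisphosphate synthase, stood at 87.7 and 87.2 at 0 h, 85.95 and 85.6 at 2 h, 86.2 and 89.9 at 4 h, 85.6 and 90.7 at 8 h, 86.6 and 89.2 at 16 h, 88 and 85.98 at 24 h and 85.3 and 86.5 at 48 h. Its 14 values span 5.37 points. Smdt1, a subunit of the mitochondrial calcium uniporter, spanned 6.07 points, from 85.3 to 91.3. The others were Saal1, Cacng2, a neuronal AMPA receptor subunit gene, Katna1, a microtubule-severing enzyme, and Rab3gap1, with ranges of 5.29 to 6.15 points.

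At the top of the lists, Rab8a, a small GTPase of membrane traffic, and Asah1, acid ceramidase, were among the 5 highest mean percentiles, and the lowest value of each in any library was 99.97 and 99.97. Gstm1, a glutathione transferase, and Sel1l of endoplasmic reticulum quality control were among these 5 too. At the bottom, Cdx2, the trophectoderm homeobox factor, was at 31.7 and 14.2 at 0 h, 30.7 and 6.53 at 2 h, 0.29 and 31.6 at 4 h, 4.07 and 11.2 at 8 h, 35.04 and 26.9 at 16 h, 14.3 and 27.1 at 24 h and 47.01 and 47.8 at 48 h. Both 48 h libraries were above all others, and 48 h minus 0 h was 24.5 ± 13.7 points (adjusted p = 0.17). Here and below, ± after a difference in points is the moderated standard error of the limma fit. Lhfpl3, Slc7a2, an arginine transporter, Rab6b and Fat3 were the other promoters with the lowest means, 16.3 to 24.5.

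Widths differed between genes, and this spread was not compared with that of single regions over time. The merged regions had a median of 892 bp, with quartiles of 699 and 1102 bp and extremes of 109 and 2820 bp, against a median of 676 bp for always-called distal regions. Within single libraries the median covered width at the promoters was between 639.5 and 706 bp and at the distal regions between 423 and 509 bp. The widest were Gpc6, a heparan sulfate proteoglycan, at 1778 bp on average, Hunk, a kinase, at 1765 bp, 1700001P01Rik, Pgr, the progesterone receptor, and Ism1. The narrowest was a 93.9 bp region near Mars, the methionyl-tRNA synthetase, followed by Mlx, a helix-loop-helix factor, at 113 bp. Mean width and mean percentile were weakly related across the 9592 (Pearson's r = 0.14, Spearman's rho = 0.17, not independent replicates).

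The median percentile of the always-open promoters moved little up to 4 h and was higher later. The 0 h libraries had medians of 79.2 and 81.7, those of 4 h 78.6 and 78.5, those of 8 h 81.7 and 83.8, those of 24 h 84.97 and 85.4 and those of 48 h 84.9 and 86.8. Both 24 h and both 48 h libraries lay above all earlier ones. The always-called distal regions had medians of 68.5 and 69.7 at 0 h, 74.1 and 75.5 at 16 h and 64.3 and 64.9 at 48 h. The gap between promoters and distal regions was 10.8 and 11.98 points at 0 h, narrowed to 5.75 and 3.52 at 4 h and widened to 20.6 and 21.9 at 48 h. Promoters held 23.8% and 23.5% of all covered bases at 0 h and 28.2% and 27.8% at 48 h, while the covered length of the whole lists was 27.4 and 29.2 Mb and then 22.5 and 24.96 Mb. Ranks therefore rose at the promoters in lists that had become shorter, and how far the other peaks of the lists account for the rise was not tested.

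**Figure D3:**
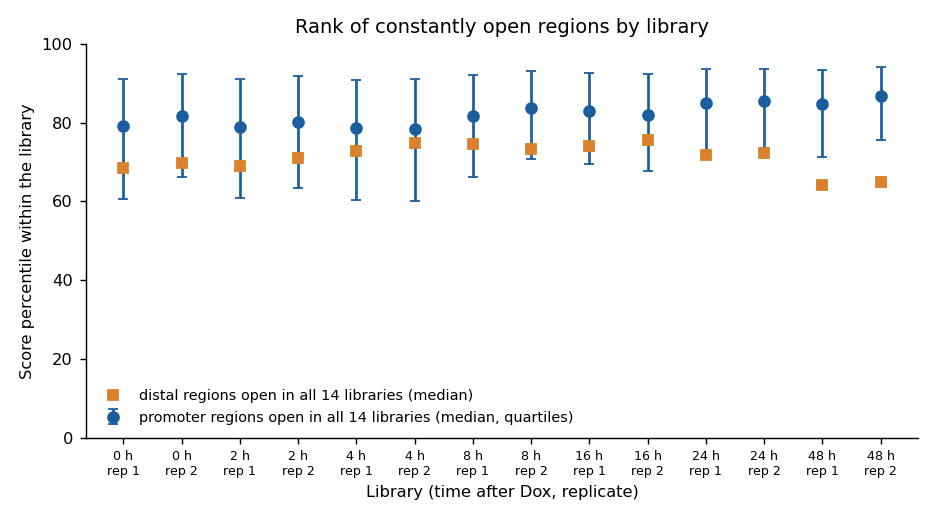
Score percentile within each of the 14 libraries, ordered by time after Dox and replicate, for the 9592 always-open promoter regions (circles, median; bars, quartiles) and the 8803 distal regions called in all libraries (squares, median). The promoter medians lie between 78.5 and 86.8, and the gap to the distal medians is largest at 48 h.

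Which promoters changed rank between 0 h and 48 h was tested with limma over all 18395 always-called regions. Of the 9592 promoters, 2151 (22.4%) rose and 888 (9.26%) fell at an adjusted p under 0.05, and 6553 did not pass. Over all regions tested 20.2% rose and 19.3% fell, so rises among the promoters were near the background and falls below it. Distal regions split the other way, with 1564 higher and 2661 lower. The median difference was 3.57 points at the promoters, -2.45 at the distal regions and 1.64 over all regions. The call count depends on single libraries at the ends of the series: 1997 promoters passed without replicate 1 of 0 h, 1853 without replicate 1 of 48 h and 1715 (953 higher, 762 lower) without replicate 2 of 48 h. With the mean over the peaks of a region in place of its highest peak 1937 passed.

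Over the 7 time points together, 4287 promoters (44.7%) varied by the moderated F test, against 53.7% of all regions tested and 63.4% of the distal ones. With the mean over peaks 2503 varied. From 2 h to 48 h, a comparison in which both ends are serum medium, 2459 promoters rose and 806 fell, beside 20.7% and 19.1% of all regions. Without replicate 1 of 48 h 2069 passed in all, without replicate 2 of 48 h 1942 and with the mean over peaks 2095. These 3 comparisons share the 48 h or 0 h libraries. Of the 3039 promoters that passed in 48 h minus 0 h, 1867 passed in the same direction in 48 h minus 2 h.

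By 2 h few promoters had moved. At adjusted p under 0.05 261 had risen and 356 had fallen, against 6.96% and 5.08% of all regions tested, or 2.72% and 3.71% of the promoters. Without replicate 1 of 0 h 384 promoters passed in all, 387 without replicate 1 of 2 h and 341 with the mean over peaks. The split depended on single libraries, with 460 higher and 183 lower without replicate 2 of 0 h and 169 higher and 456 lower without replicate 2 of 2 h. Cdca7, a MYC target gene with a role in chromatin remodelling, had the largest rise of all by 48 h, and most of it was present by 2 h: 8.36 and 10.8 at 0 h, 81.4 and 87.8 at 2 h, 97.1 and 96.9 at 4 h and 86.5 and 88.5 at 48 h. Both 2 h libraries were above both 0 h libraries by over 70 points (75 ± 3.74 points, adjusted p = 3.3e-08). Lamb1, a laminin chain of the PrE basement membrane, was at 18.1 and 26.1 at 0 h and 77.2 and 78.9 at 2 h (rise of 56 ± 6.84 points, adjusted p = 1.0e-04). Wnt5b, a signalling ligand, dropped from 87.4 and 89.9 at 0 h to 13.1 and 43.1 at 2 h (fell by 60.6 ± 11.01 points, adjusted p = 0.0024) and was at 12.8 and 28.7 at 48 h. Sox4, at 57.9 and 61.4 at 0 h, 16.9 and 9.34 at 2 h and 57.8 and 58.3 at 48 h, fell by 2 h (adjusted p = 0.0044) and was back at its starting rank by 48 h. Tet2, a 5-methylcytosine dioxygenase, rose by 39.03 ± 7.89 points (adjusted p = 0.005).

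Risers and fallers followed different courses between the ends. The 2 classes were formed from the 0 h and 48 h values, so only the values between are informative, and these carry no test. The 2151 risers had a median percentile of 66.8 at 0 h and 88.2 at 48 h (means of 2 libraries) and had covered 21.5% ± 4.41 (SD, n = 2) of that distance by 2 h. The share was 13.7% ± 1.76 at 4 h, 57.7% ± 9.42 by 8 h and 88.2% ± 1.48 by 24 h. The 888 fallers went from 88.5 to 61.8. They had covered 12.4% ± 2.15 at 8 h, 12.5% ± 1.88 at 16 h and 42.8% ± 0.426 at 24 h. By 24 h the risers had covered most of their distance and the fallers less of theirs.

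**Figure D4:**
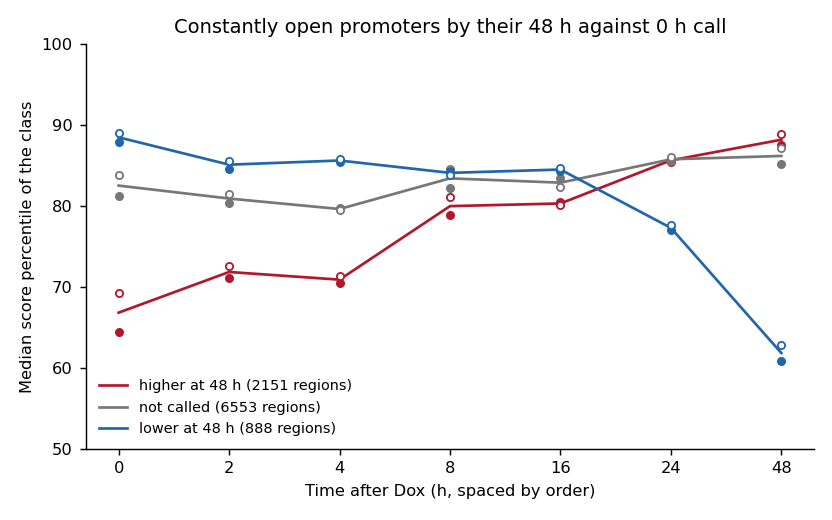
Median score percentile at each time after Dox (h, spaced by order) of always-open promoters called higher (2151), lower (888) or not called (6553) in 48 h against 0 h; filled circles are replicate 1, open circles replicate 2 and lines their means. The percentile axis runs from 50 to 100, the risers' mean is 79.97 at 8 h, and the fallers stay above 83 until 16 h.

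Sequence differed between the classes. The ratio of observed to expected CpG was over 0.6 in 81.9% of risers, 79.2% of promoters that did not pass and 45.2% of fallers. Seen from the other side, 21.7% of the 2241 CpG-poor promoters fell and 17.4% rose, against 5.46% and 24.0% of the 7351 CpG-rich ones. Over the 9592 promoters 9.26% fell and 22.4% rose, and over all regions tested 19.3% and 20.2%. ETS letters stood in 21.8% of risers, 9.46% of fallers and 20.1% of promoters that did not pass. The shares were 5.35%, 1.46% and 5.25% for the YY1 letters AAGATGGC, and 1.35%, 3.15% and 1.36% for the octamer ATGCAAAT of POU factors. The 146 promoters with the octamer rose in 19.9% and fell in 19.2% of cases, near the shares of all regions tested. GATA letters stood in 5.63% of risers, 6.19% of fallers and 4.88% of promoters that did not pass, beside 9.31% of all genes.

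The 10 largest rises included 1 core PrE gene. Dab2, an endocytic adaptor needed for endoderm organization, was at 37.4 and 22.98 at 0 h, 20.7 and 30.1 at 2 h, 45.9 and 57.1 at 4 h, 62.4 and 75.2 at 8 h, 77.7 and 82.95 at 16 h, 90.1 and 91.8 at 24 h and 95.3 and 94.3 at 48 h. All libraries from 4 h on lay above both 0 h libraries, and the difference between 48 h and 0 h was 64.6 ± 6.96 points (adjusted p = 8.7e-06). Ablim1, an actin-binding LIM protein, went from 15.9 and 12.6 at 0 h to 81.5 and 83.8 at 8 h and 91.2 and 89.96 at 48 h, a rise of 76.3 ± 5.58 points (adjusted p = 2.5e-07). Plcd1, a phospholipase, was at 19.3 and 6.73 at 0 h, 38.6 and 12.8 at 4 h, 58.1 and 65.5 at 8 h and 83.8 and 80.5 at 48 h and rose by 69.2 ± 8.29 points (adjusted p = 2.3e-05). Slc5a11, an inositol transporter, jumped between 2 h and 4 h, with 14.9 and 23.98 at 0 h, 18.6 and 33.2 at 2 h, 81.7 and 83.2 at 4 h, 95.9 and 97.5 at 16 h and 81.2 and 87.1 at 48 h. The rest of the 10 were Syna, the syncytin-A gene of placenta, at 11.6 and 1.54 at 0 h and 84.05 and 76.8 at 48 h, P3h2, a collagen prolyl hydroxylase, Epop, a Polycomb-associated factor, Rcn3, a calcium-binding protein of the endoplasmic reticulum, and Frk, a tyrosine kinase. The 10 rises span 64.6 points to 77.9 points, and the highest 0 h value among them was the 37.4 of Dab2. With the mean over peaks the rise of Slc5a11 was 24.0 points and did not pass (adjusted p = 0.14).

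The deepest fall was at the gene of an innate immune protein. Pglyrp1, a peptidoglycan recognition protein, was at 90.3 and 89.9 at 0 h, 72.3 and 52.8 at 2 h, 63.8 and 54.9 at 4 h, 44.3 and 30.7 at 8 h, 65.5 and 64.7 at 16 h, 56.1 and 62.4 at 24 h and 6.32 and 4.95 at 48 h. Both 48 h libraries lay far below all others, and the region fell by 84.5 ± 7.62 points (adjusted p = 1.7e-06), more than any other of the 9592. Spic, an ETS-family factor, was at 87.2 and 94.2 at 0 h, 76.6 and 74.01 at 8 h, 55.2 and 53.02 at 24 h and 11.04 and 9.84 at 48 h and fell by 80.3 ± 5.001 points (adjusted p = 5.9e-08). Ikzf1, a lymphoid zinc finger factor, was at 93.5 and 91.2 at 0 h, 57.1 and 68.1 at 8 h, 33.8 and 27.2 at 24 h and 6.31 and 19.1 at 48 h, and fell by 79.6 ± 6.96 points (adjusted p = 1.3e-06). Igtp, an interferon-induced GTPase gene that shares its region with Irgm2, went from 90.8 and 91.8 at 0 h to 1.6 and 22.5 at 48 h. Pdgfa, the ligand of the PrE receptor PDGFRA, dropped early, with 93.5 and 94.1 at 0 h, 50.6 and 61.03 at 2 h, 8.14 and 44.5 at 8 h and 8.87 and 19.1 at 48 h, and fell by 79.8 ± 10.9 points (adjusted p = 7.4e-05). The other falls were at Akap2, a kinase-anchoring protein, Ralgps2, Hecw1, a ubiquitin ligase, Nt5c3 and Rbpj. The Akap2 region has its midpoint 1000 bp before the TSS and the Rbpj region 999 bp after it, and neither contains the TSS.

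**Figure D5:**
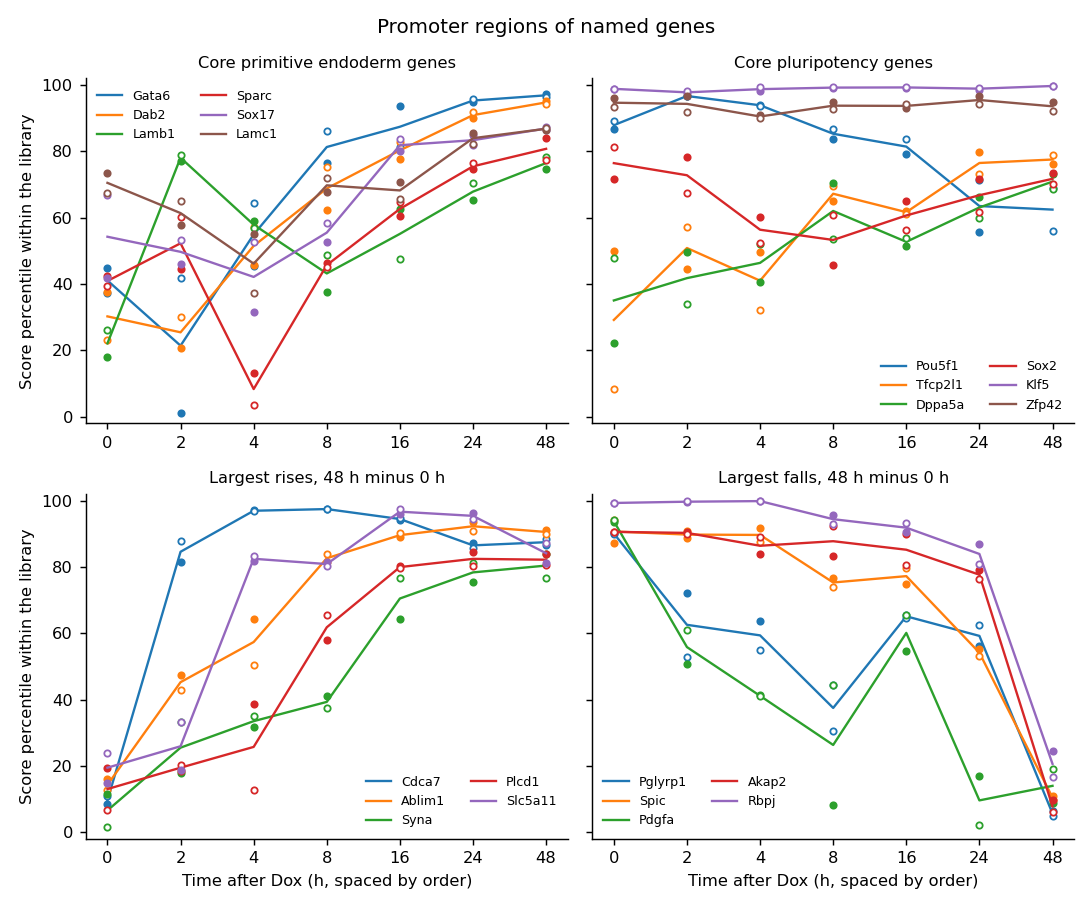
Score percentile within the library against time after Dox (h, spaced by order) at promoter regions of named genes in 4 groups; filled circles are replicate 1, open circles replicate 2 and lines their means. Gata6 ends above 96 in both 48 h libraries, Cdca7 is above 80 from 2 h on, and the 5 falls shown end below 25. Not every always-open promoter of the gene lists is drawn. The core PrE panel leaves out Lrp2, which fell, and Lama1, Pdgfra and Sall4, which did not pass. The core pluripotency panel leaves out Utf1, Klf2, Tbx3 and Sall4.

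Of 26 core PrE genes, 10 had an always-open promoter, and among these 5 rose and 1 fell by 48 h with a median difference of 24.5 points. Over all regions tested 20.2% rose and 19.3% fell with a median of 1.64 points, and over the 9592 promoters 22.4% and 9.26% with 3.57 points. Gata6 itself, with the midpoint 205 bp before its TSS, was at 44.7 and 37.3 at 0 h, 1.08 and 41.7 at 2 h, 45.3 and 64.5 at 4 h, 76.4 and 86.2 at 8 h, 93.5 and 81.3 at 16 h, 95.01 and 95.7 at 24 h and 97.3 and 96.5 at 48 h. Both libraries from 8 h on were above all earlier ones, and replicate 1 of 2 h was among the lowest peaks of its list (rise of 55.9 ± 10.5 points, adjusted p = 0.001). The paper states that the GATA6 transgene holds the coding sequence alone, so its reads would map to coding exons of this gene. Their part in the value was not tested. Sparc, a matrix glycoprotein of parietal endoderm, was at 42.4 and 39.4 at 0 h, 13.04 and 3.53 at 4 h, 46.3 and 45.1 at 8 h, 74.6 and 76.4 at 24 h and 84.1 and 77.5 at 48 h and rose by 39.9 ± 7.02 points (adjusted p = 6.1e-04). Its 4 h libraries were the lowest of the 14.

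Lamb1 had a course of its own among them, with 18.1 and 26.1 at 0 h, 77.2 and 78.9 at 2 h, 58.96 and 56.8 at 4 h, 37.6 and 48.8 at 8 h, 62.7 and 47.5 at 16 h, 65.2 and 70.5 at 24 h and 74.7 and 78.2 at 48 h. After the rise by 2 h both 8 h libraries were lower again, and the difference from 0 h to 48 h was 54.4 ± 6.84 points (adjusted p = 3.5e-05). Sox17, an endoderm factor, had its region 968 bp into the gene, at 41.7 and 66.8 at 0 h, 31.7 and 52.6 at 4 h, 52.6 and 58.3 at 8 h, 79.96 and 83.7 at 16 h and 86.5 and 87.3 at 48 h. Its libraries from 16 h on lay above all earlier ones (rise of 32.7 ± 8.29 points, adjusted p = 0.0073). Lamc1, a laminin chain, changed by 16.3 ± 6.22 points (adjusted p = 0.053) and Sall4, a zinc finger factor that is in the pluripotency list too, by 11.7 ± 6.399 points (adjusted p = 0.16). Pdgfra, the receptor that marks PrE, was between 69.6 and 85.3 in all 14 libraries and changed by 4.02 ± 4.32 points (adjusted p = 0.48). Lrp2, the megalin receptor, was at 93.9 and 92.1 at 0 h, 74.03 and 80.98 at 2 h and 80.5 and 83.4 at 48 h and fell by 11.01 ± 3.67 points (adjusted p = 0.03), and Lama1, another laminin chain, was at 91.4 and 91.5 at 0 h and 78.3 and 89.97 at 48 h and did not pass (adjusted p = 0.13). Calls were lost under an alternative at 2 of these genes. The difference of Sox17 was 20.1 points (adjusted p = 0.089) without replicate 1 of 0 h and 16.7 points (0.32) with the mean over peaks. Without replicate 1 of 0 h the difference of Lrp2 was -10.1 points (adjusted p = 0.13), as without replicate 2 of 0 h (-11.9, 0.065) and without replicate 1 or 2 of 48 h (-9.60 and -12.4, 0.14 and 0.066). Lrp2 did not pass with the mean over peaks (adjusted p = 0.058) or the top 50000 peaks of each library (adjusted p = 0.052) either.

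Among the 16 core PrE genes without one were Gata4, Sox7, Foxa2, Hnf4a, Amn, Cubn, Fst, Krt18, Krt8, Bmp2, Col4a1, Col4a2, Serpinh1, Afp and Ttr. Gata4 regions were called in 12 libraries and those of Sox7, Krt18 and Bmp2 in 13. Afp and Ttr had no promoter region in any library.

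Of 20 core pluripotency genes 10 had an always-open promoter, of which 3 rose and 1 fell, beside the 20.2% and 19.3% of all regions tested. Pou5f1, which encodes OCT4, had its region 881 bp into the gene, in an intron and without the TSS, at 86.7 and 89.1 at 0 h, 96.7 and 96.7 at 2 h, 94 and 93.8 at 4 h, 83.8 and 86.9 at 8 h, 79.1 and 83.8 at 16 h, 55.8 and 71.2 at 24 h and 68.96 and 55.9 at 48 h. The 24 h and 48 h libraries lay below all others, and the region fell by 25.5 ± 5.18 points (adjusted p = 0.0017). Its width changed by -0.90 on the log2 scale (adjusted p = 0.012). Tfcp2l1, a factor of the naive network, rose from 49.9 and 8.41 at 0 h to 76.2 and 78.8 at 48 h (48.4 ± 10.8 points, adjusted p = 0.0032), with 1 of its 0 h libraries near those of 2 h. Dppa5a, an RNA-binding protein of ES cells, rose from 22.2 and 47.9 at 0 h to 73.2 and 68.6 at 48 h (35.9 ± 9.31 points, adjusted p = 0.0084), and Utf1, a chromatin-associated factor, from 78.8 and 83.8 at 0 h to 88.5 and 89.3 at 48 h (7.598 ± 2.08 points, adjusted p = 0.011). Without replicate 1 of 0 h neither Dppa5a (23.0 points, adjusted p = 0.095) nor Utf1 (5.10 points, 0.092) passed. Dppa5a did not pass without replicate 1 of 48 h either (33.5 points, 0.057), nor Utf1 without replicate 2 of 48 h (7.17 points, 0.064).

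Other pluripotency promoters were high in every library. Klf5 was never under 97.5, Tbx3 never under 93.5, Zfp42, a marker of naive ES cells also known as Rex1, never under 90.1 and Klf2 never under 88.2, and none of these 4 passed the test (adjusted p = 0.22, 0.52, 0.63 and 0.55). The Sox2 region, 642 bp before the TSS, was at 71.6 and 81.3 at 0 h, 45.9 and 60.7 at 8 h and 73.4 and 70.01 at 48 h and did not pass (adjusted p = 0.62). The 10 genes without an always-open promoter were Nanog, Klf4, Esrrb, Nr5a2, Tdgf1, Tcl1, Prdm14, Dppa3, Fgf4 and Dppa4, of which Nr5a2 was called in both libraries of every time point from 8 h and in none before.

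Trophectoderm genes, a lineage neither ES cells nor PrE belong to, had 7 of 12 with an always-open promoter, and the median of their mean percentiles was 62.5. Fgfr2, an FGF receptor that PrE uses too, was at 15.9 and 6.91 at 0 h, 57.2 and 23.03 at 2 h, 32.4 and 2.11 at 4 h, 31.9 and 63.5 at 8 h, 87.6 and 84.02 at 16 h, 80.5 and 84.5 at 24 h and 67.7 and 78.7 at 48 h. Its 16, 24 and 48 h libraries were above all earlier ones (rise of 61.7 ± 12.8 points, adjusted p = 0.002). A region at Ctbp2 that lies near an annotated start of Fgfr2, 2857150 bp away on the same chromosome, fell by 21.95 ± 5.997 points (adjusted p = 0.011), but did not pass without replicate 1 of 0 h (-17.6 points, 0.091) or replicate 2 of 48 h (-16.6 points, 0.098). Ascl2, a helix-loop-helix factor, had a pair of always-open regions. The one over its TSS was at 63.5 and 66.1 at 0 h, 7.77 and 46.2 at 2 h, 86.9 and 83.1 at 24 h and 67.1 and 69.6 at 48 h and did not pass at 48 h (adjusted p = 0.81). The one 850 bp into the gene went from 79.3 and 73.9 at 0 h to 31.4 and 37.01 at 48 h, and fell by 42.4 ± 7.05 points (adjusted p = 3.9e-04). Eomes, Tfap2c, Gata3 and Tead4 did not pass (adjusted p = 0.37, 0.38, 0.47 and 0.28), and Elf5, Gata2, Hand1, Krt7 and Plet1 had no such promoter.

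Housekeeping lists are given by their counts, beside the 22.4% and 9.26% of the 9592 promoters that rose and fell. Of 57 always-open cytosolic ribosomal protein promoters, 30 rose and 1 fell, with a median difference of 11.1 points, beside the 20.2% and 19.3% of all regions. Rps25, shared with Trappc4, was at 17.1 and 47.9 at 0 h, 45.4 and 44 at 8 h, 79.1 and 72.6 at 24 h and 76.8 and 81.5 at 48 h (rise of 46.7 ± 9.41 points, adjusted p = 0.0016). Rpl10a was at 42.99 and 33.2 at 0 h, 57.1 and 72.5 at 8 h, 69.5 and 80.5 at 24 h and 74.8 and 72.3 at 48 h and rose by 35.5 ± 8.24 points (adjusted p = 0.0042; 25.8 points and 0.094 with the mean over peaks), whereas Rpl37 and Rps29 were at 99.05 or above and 97.4 or above throughout. RNA polymerase subunits rose in 11 of 27 with no fall, and Polr2c went from 2.17 and 21.7 at 0 h to 57.03 and 70.3 at 48 h (51.7 ± 10.6 points, adjusted p = 0.0019). Translation initiation factors rose in 16 of 43 with 1 fall, tRNA synthetases in 10 of 37 with 1 fall, proteasome subunits in 9 of 33, splicing factors in 10 of 39, complex I in 8 of 33, mitochondrial ribosomal proteins in 13 of 70 and chaperones in 19 of 73, the last 5 with 0 falls.

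The next counts stand beside 22.4% of the 9592 promoters that rose and 9.26% that fell. Over all regions tested these shares were 20.2% and 19.3%. Chromatin regulators rose in 15 of 31 with 1 fall and Hox genes in 3 of 7 with no fall. Histones rose in 5 of 45 with 3 falls, and replication licensing genes in 5 of 28 with 1 fall. Zfp zinc fingers rose in 42 and fell in 28 of 295. Sox, Fox, Gata, Pax and T-box promoters rose in 8 (25%) and fell in 5 (15.6%) of 32, near the shares of all regions. Pax6, an eye and neural factor, went from 37.2 and 44.8 at 0 h to 14.5 and 12.9 at 48 h (adjusted p = 0.025), a call that was lost without replicate 2 of 0 h (-23.5 points, 0.11) and without either library of 48 h (-28.1 and -26.5 points, 0.078 and 0.096), and with percentiles taken among the always-called regions alone (-9.18 points, 0.34). Pax5 of B cells was at 92.4 or above. Wnt, Fgf and Bmp ligands rose in 3 and fell in 4 of 17, among them Bmp6, which rose from 81.6 and 89.7 at 0 h to 94.5 and 97.2 at 48 h (adjusted p = 0.0049, but 6.14 points and 0.057 without replicate 1 of 0 h). Cytochrome P450 promoters fell in 4 of 11 with no rise: Cyp1b1, an extrahepatic monooxygenase, was at 97.4 and 96.97 at 0 h, 96.2 and 96.6 at 16 h, 90.8 and 88.6 at 24 h and 89.2 and 91.03 at 48 h (fell by 7.096 ± 1.11 points, adjusted p = 2.4e-04). The fall of Cyp7b1 (-38.3 points, adjusted p = 0.027) did not pass with percentiles among the always-called regions alone (-11.3 points, 0.11). That of Cyp4f13 (-3.58 points, adjusted p = 0.039) did not pass with the mean over peaks (adjusted p = 0.082). The study's PrE list had 131 rises (28.1%) and 24 falls (5.15%) in 466 promoters. Its Epi list had 37 (23.4%) and 35 (22.2%) in 158, near the shares of all regions.

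Of 5 usual reference genes 2 rose, too few to set beside the 22.4% of the 9592 promoters. Gapdh, the glycolytic enzyme, was at 86.8 and 86.6 at 0 h, 90.99 and 93.8 at 8 h and 94.1 and 93.7 at 48 h and rose by 7.21 ± 1.57 points (adjusted p = 0.0028). Polr2a, the largest RNA polymerase II subunit, was at 59.4 and 64.7 at 0 h, 49.8 and 51.02 at 4 h and 80.5 and 79.6 at 48 h and rose by 18 ± 5.33 points (adjusted p = 0.017). That call was lost without replicate 1 of 0 h (15.3 points, 0.093) or either library of 48 h (17.6 and 18.4 points, 0.079 and 0.068), and with the mean over peaks the difference was 0.314 points. Eef1a1, the elongation factor, and Tbp, the TATA-binding protein whose promoter is shared with Psmb1, did not pass (adjusted p = 0.086 and 0.4). Actb had no always-open promoter.

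Width changed at fewer promoters than rank. Of the 9592, 339 were wider and 398 narrower at 48 h than at 0 h, on the log2 scale of covered bases, beside 4.05% and 7.95% of all regions tested. With each library centred on its median width the split was 482 wider and 241 narrower. Without replicate 2 of 48 h it was 183 and 461, and without replicate 2 of 0 h 291 and 223. Without replicate 1 of 0 h 436 passed in all. Rank and width differences were related across the 9592 (Pearson's r = 0.35, Spearman's rho = 0.31, regions of the same libraries and not independent replicates), and 149 risers were also wider while 44 were narrower. Cdca7 gained both, from a mean covered width of 163.5 bp at 0 h to 442.5 bp at 48 h (1.44 on the log2 scale, adjusted p = 2.1e-05). Pdgfra was narrower at 48 h with -0.39 on the log2 scale (adjusted p = 0.018) while its rank did not pass the test.

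Regions near annotated starts of 1 gene could go opposite ways. Of 791 genes with 2 or more always-open regions, 42 had at least 1 that rose and 1 that fell. Another 70 had 2 or more that passed, all in 1 direction. Over all 9592 promoters 22.4% rose and 9.26% fell, and how many opposite genes these rates alone would give was not tested. Genes that share their regions are counted separately, as Thap8 and Wdr62 are. Their 2 regions start 281 bp apart and those of Fgfr2 2857150 bp apart, so the 42 are not all alternative promoters. The 5 genes with the widest split, chosen after their values were seen, were Nrxn2, Rbpj, Foxn3, Fiz1 and Sulf1. Rbpj, the DNA-binding partner of Notch, had 3 regions. The one at chr5:53466780-53467522 went from 99.4 and 99.3 at 0 h to 24.6 and 16.6 at 48 h and the one at chr5:53555403-53556428 from 99.8 and 99.9 at 0 h to 61.2 and 55.5 at 48 h. The third in order, at chr5:53588905-53590768, rose from 81.5 and 73.1 at 0 h to 93.6 and 94.1 at 48 h. The 2 upstream starts lost rank as the downstream one gained it, and all 3 differences passed the test.

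Foxn3, a forkhead repressor, had a region at chr12:99411778-99413214 that fell from 99.3 and 99.4 at 0 h to 26.3 and 20.8 at 24 h and 24.1 and 34.95 at 48 h. Its region at chr12:99563541-99563996 rose from 58.3 and 56.9 at 0 h to 81.6 and 80.6 at 48 h, and another at chr12:99391967-99392507 was at 78.03 and 79.4 at 0 h and 82.5 and 84.01 at 48 h. In Sulf1, a heparan sulfatase, the start at chr1:12691866-12692630 fell from 94.99 and 90.2 at 0 h to 6.83 and 32.5 at 48 h. Its start at chr1:12717922-12718821 rose from 82.1 and 79.7 at 0 h to 94.1 and 95.4 at 48 h. Annotated starts of 1 gene thus held opposite changes in rank, which a value per gene would average.

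The edge of the always-open class was set by weak regions. The 1041 promoter regions called in 13 libraries had a median mean percentile of 46.7 where called, against 80.5 for the 9592, and regions called in 1 library alone had a median percentile of 9.24. The library that missed such a region was most often replicate 1 of 0 h, with 157 regions, and least often replicate 2 of 8 h, with 16. Membership near the edge therefore moved with single libraries, and the part of their depth in this was not tested.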

How the data were processed

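ATAC-seq peaks were measured in 14 libraries. The authors ran the ENCODE ATAC-seq pipeline and deposited, per library, peaks with a score each. Names of the files give an IDR cutoff (irreproducible discovery rate) of 0.05 between pseudoreplicates, and blacklist filtering. The build is GRCm38 (mm10) per the labels. The unit of the deposited score is not stated, so it was used only as a percentile among the autosomal peaks of its library (scores tied at their mean rank), and a region took its highest peak. The labels also name deepTools. Read depth cannot be computed from the lists.

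Peaks were merged by overlap of 1 bp and annotated with GENCODE M21. Percentile and log2 covered width were fitted in limma 3.58.1 (R 4.3.3) with 1 mean per time point, empirical Bayes moderation with a trend and Benjamini-Hochberg adjustment over all 18395 regions called in 14 libraries, and a call means adjusted p under 0.05. Differential read counting, which the authors did with DiffBind, needs reads and was not done here. Tables were made in Python 3.11.15 and the fit was tested on simulated data. Sequences are from the GRCm38 assembly and its annotation.

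The promoters and gene lists were chosen with earlier results of these data known. Named were the 10 largest rises and falls from 0 h to 48 h among calls, the 6 smallest ranges with a mean under 90, the 5 highest and lowest means, the 5 widest and narrowest, members at core pluripotency, PrE and trophectoderm genes, for other lists the 2 highest and 2 lowest means, and 5 reference genes. Wnt5b, Sox4, Tet2 and the other named members with an early change were picked from these after their values were seen, as were the printed sequences of Rab8a and Sel1l and the choice among the rises and falls. Motifs and genes with opposite members were also chosen after values were seen. Alternatives changed the rank scale, the peak of a region, the fit, the peak list, the region rule and, in turn, each library. Some genes that these rules name are not reported here.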

Additional observations from a re-analysis of the deposited data

How the results depend on the processing

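No difference between 0 h and 48 h in percentile at a named promoter turned sign where both values passed the test. The 2 h and width differences of named promoters were not checked under the alternatives. The split of calls turned in 2 comparisons. From 261 higher and 356 lower, 2 h against 0 h went to 460 and 183 without replicate 2 of 0 h. From 339 wider and 398 narrower, width at 48 h went to 482 and 241 with library medians centred, to 291 and 223 without replicate 2 of 0 h and to 274 and 255 without replicate 1 of 48 h. Of the 3039 promoters called between 0 h and 48 h, the count was 1937 with the mean over the peaks of a region, where 2503 varied over the 7 time points (4287 with the highest peak), 341 were called between 0 h and 2 h (617) and 2095 between 2 h and 48 h (3265). Leaving out each library in turn gave 1715 to 3231 calls for 48 h against 0 h, 384 to 648 for 2 h against 0 h, 1942 to 3491 for 48 h against 2 h and 436 to 757 for width. The always-open promoters numbered 6320 when a library had to cover at least 50% of a region, and between 8444 and 10105 under the other region rules. The share of all genes with one was 45.6% within 500 bp of a TSS, 45.7% with the top 50000 peaks of each library and 70.1% when 1 library sufficed. Of 57 called differences between 0 h and 48 h among 152 named promoters, 34 passed under every alternative.

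With the replicate block, 3054 promoters passed for 48 h against 0 h, 598 for 2 h, 3256 for 48 h against 2 h, 686 for width and 4247 over time. Deviations of same-numbered libraries correlated between -0.142 and 0.137 over 21 pairs of time points, so the numbers were not read as pairs.

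The lists hold peaks that passed a filter, without reads, so the counting error of a percentile cannot be estimated from them. The mean of a time point rests on 2 libraries, while the limma fit took its spread from the libraries of all time points, with moderation. Time, medium and Dox cannot be told apart at 0 h, and the ranks of a library depend on all its peaks.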
